A study of Homo sapiens with 480 samples.

Results

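The 6 genes described here are NODAL and GDF3, which encode ligands of the Nodal pathway, TDGF1, which encodes the Nodal co-receptor also called Cripto, LEFTY1 and LEFTY2, which encode secreted Nodal antagonists, and FOXH1, which encodes a nuclear partner of the pathway's SMAD proteins. They were taken by symbol from the 27021 genes of each table, and all 6 were found. The cells were BJ fibroblasts, an established line of human skin fibroblasts, during reprogramming towards pluripotency. The 5 groups were untreated BJ cells, cells at day 2 and at day 8 after induction of the virally delivered factors OCT4, SOX2, KLF4 and MYC, and day-16 cells that a sort had divided into those with and those without the surface epitope TRA-1-60. Each group held 96 single cells, 480 in all, of which 460 were kept: 92 BJ cells, 96 of day 2, 92 of day 8, 95 TRA-1-60 positive and 85 TRA-1-60 negative cells. The labels tell of no separate cultures, infections or chips within a group. Each group is therefore 1 sample whose cells are not replicates, and no test between groups was possible. Levels are FPKM rescaled to a sum of 1000000 in each cell, called the level below. A gene counted as detected in a cell at a level of 1 or more. Intervals on shares of cells are exact binomial (Clopper-Pearson) 95% intervals and cover counting error only. For a gene found in no cell of a whole group, the limit that 3 cells of the total would give is printed beside the upper bound of the exact interval.

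Nodal ligands bind activin receptors, and Nodal needs a Cripto-type co-receptor to do so. The receptors phosphorylate SMAD2 and SMAD3, which join SMAD4 and enter the nucleus, where FOXH1 brings the complex to its target genes. NODAL, LEFTY1 and LEFTY2 are themselves targets, so that the pathway is known for both a positive and a negative feedback loop. In human pluripotent stem cells SMAD2 and SMAD3 signalling helps to maintain NANOG, and stronger signalling leads to mesendoderm, the precursor of mesoderm and endoderm. GDF3, TDGF1 and the LEFTY genes have long served as markers of the undifferentiated state.

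The labels were first set against marker genes. All 7 pluripotency markers (NANOG, LIN28A, DNMT3B, L1TD1, ESRG, DPPA4 and SALL4) had a mean of 1 or more in the positive cells, where their summed level had a median of 1170 and ranged from 31.2 to 7051. This median was 47.8 at day 8, 16.5 in the negative cells and 0 at day 2 and in BJ. In the negative cells LIN28A was listed at 0 throughout. The summed level of 7 fibroblast markers (COL1A1, COL1A2, COL3A1, LUM, DCN, FN1 and COL6A3) had its highest median in the negative cells (8005), followed by BJ (3727), day 2 (1829), day 8 (299) and the positive cells (97.4). The number of reads per cell is unknown, and the lowest values differed between the tables: values under 10 made up 49.4% of non-zero values in BJ and 27.5% in the negative cells, with the other groups between. Shares at a level of 10 or more are therefore given beside those at 1. Fewer than 4000 genes were detected in 32 of the 95 positive cells and in 3 to 15 kept cells of each other group. No 2 cells of a group held identical values. Cells 8 and 89 of day 8 were close, with L1TD1 at 62.83 and 62.86, COL1A1 at 38.2 and 37.6 and COL1A2 at 415 and 426. They had 5196 and 5053 genes detected. Both were kept, and whether they come from the same cell was not tested.

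All 6 genes had their highest mean in the TRA-1-60 positive cells. Counting all 6, the positive cells had between 3 and 6 detected per cell: 45 of 95 cells (47.4%, 37.03 to 57.9) had all 6, 34 had 5, 13 had 4 and 3 had 3. No cell of another group had more than 3. Without FOXH1, at least 1 of the other 5 genes was detected in 3 BJ cells, 5 cells of day 2, 42 of 92 cells of day 8 (45.7%, 35.2 to 56.4), all 95 positive cells and 38 of 85 negative cells (44.7%, 33.9 to 55.9). At a level of 10 or more these counts were 1, 2, 18 (19.6%, 12.03 to 29.1), 95 and 25 (29.4%, 20.0 to 40.3). Day 8 and the negative cells thus had similar shares of cells with some gene of the set, but not with the same genes. GDF3 and TDGF1 made up most of the day-8 detections, and LEFTY2 most of those in the negative cells.

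**Figure D1:**
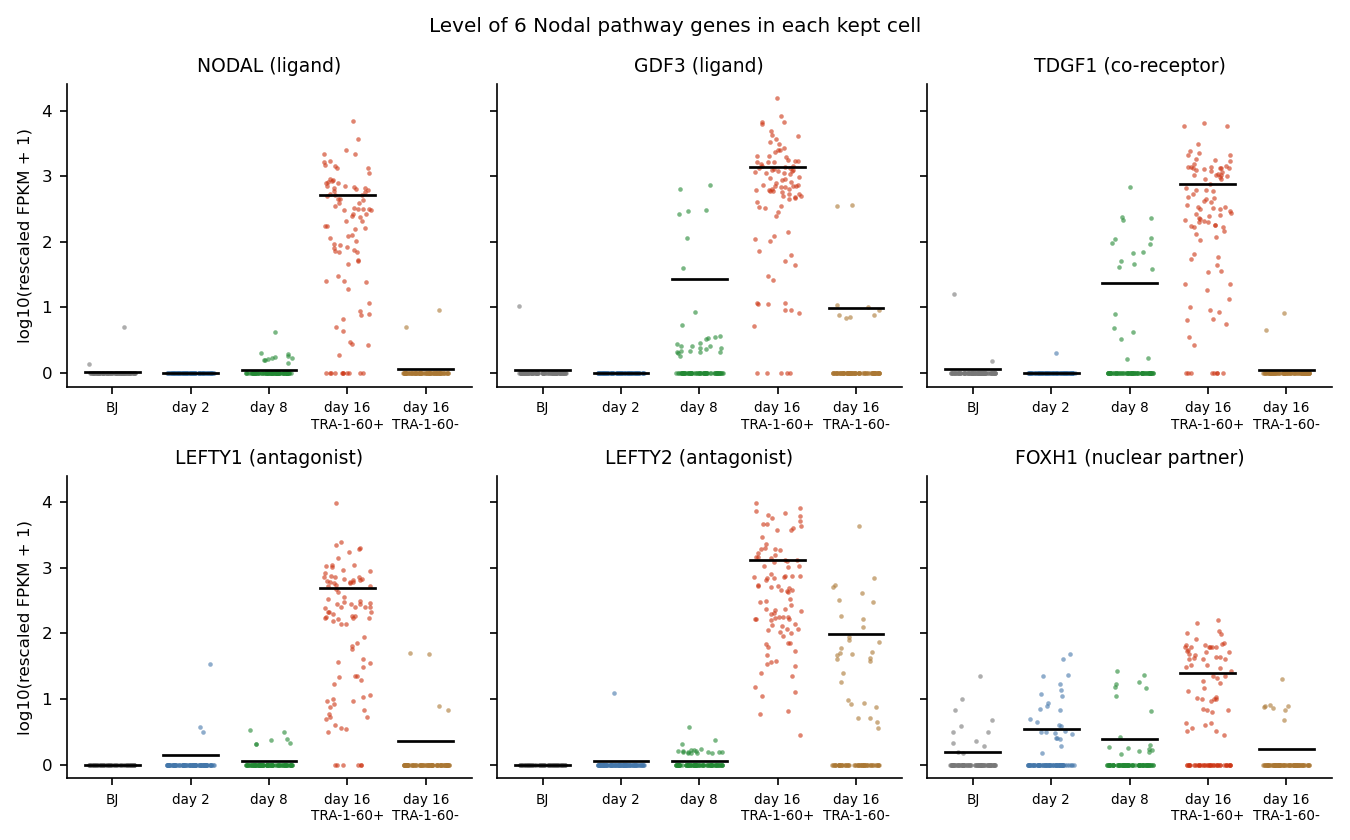
Level of each of the 6 genes in every kept cell, as log10(level + 1) on the vertical axis, for the 5 groups on the horizontal axis; each point is 1 cell, spread sideways at random, and the black bar is the group mean. The positive cells lie highest in all 6 panels, GDF3 and TDGF1 show separate high cells at day 8, and LEFTY2 shows them in the negative cells.

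**Figure D2:**
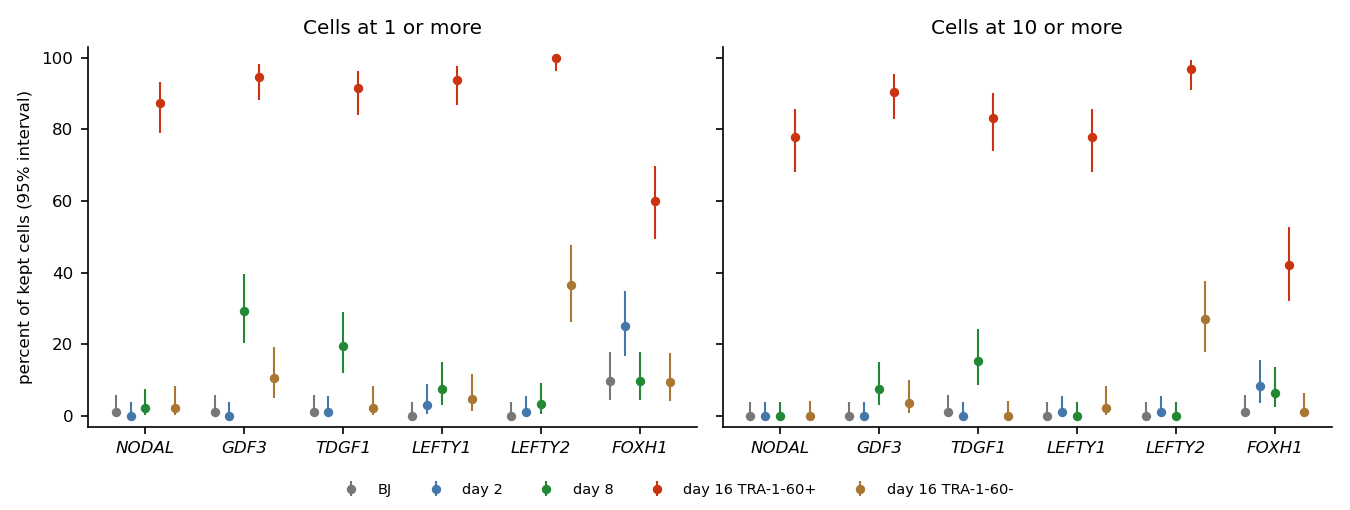
Percent of kept cells with each gene at a level of 1 or more (left) and of 10 or more (right), by group, with exact binomial 95% intervals as vertical lines. The LEFTY2 share of the negative cells (36.5% and 27.1%) lies above that of day 8, while at day 8 TDGF1 lies above the negative cells with no overlap in both panels and GDF3 in the left panel only.

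NODAL, the ligand that gives the pathway its name, was all but restricted to the positive cells among these groups. It was detected in 1 of 92 BJ cells (level 4.01), in 0 of 96 cells of day 2 (limit 3.13%, exact upper bound 3.77%), in 2 of 92 cells of day 8 (3.18 and 1.01), in 83 of 95 positive cells (87.4%, 78.97 to 93.3) and in 2 of 85 negative cells (8.08 and 3.97). No cell outside the positive group reached 10, and 74 positive cells did (77.9%, 68.2 to 85.8). Over the positive cells the level ran from 0 to 6922 with a median of 211 and a mean of 509, which was the 305th highest mean of the 27021 genes. The means were 0.0475 in BJ, 0 at day 2, 0.112 at day 8 and 0.142 in the negative cells. The intervals of the shares in the 4 groups other than the positive cells overlapped, so no order among them could be read. The mean of NODAL was 973 in the 32 positive cells with fewer than 4000 genes and 273 in the other 63, with 27 and 56 cells detected. Spearman's rho of NODAL with the number of genes detected was 0.06 over the 95 cells and 0.36 within each set. The means of GDF3 (1591 and 1304), TDGF1 (1071 and 618) and LEFTY2 (1578 and 1201) were also higher in the 32 cells. Those of LEFTY1 (387 and 547) and FOXH1 (7.91 and 31.5) were lower.

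GDF3, a TGF-beta family ligand that can act through the same receptors and co-receptors, was present earlier and in more cells than NODAL. It was detected in 1 BJ cell (9.66), in no cell of day 2 (limit 3.13%, exact upper bound 3.77%), in 27 of 92 cells of day 8 (29.3%, 20.3 to 39.8), in 90 of 95 positive cells (94.7%, 88.1 to 98.3) and in 9 of 85 negative cells (10.6%, 4.96 to 19.2). The order was positive, day 8, negative, BJ and day 2. The intervals of the positive cells, day 8 and the negative cells did not overlap, while those of the negative cells and BJ, and of BJ and day 2, did. At 10 or more, day 8 and the negative cells did overlap: 7 of 92 cells (7.61%, 3.11 to 15.1) against 3 of 85 (3.53%, 0.734 to 9.97). In the positive cells the level ran from 0 to 15494, with a median of 713 and a mean of 1401, the 111th highest mean of all genes and the highest of the 6. The day-8 mean of 26.5 rested on few cells: 20 of the 27 had levels between 1 and 10, and 7 reached 10 or more. Those 7 cells had levels of 729.7, 647, 301, 295, 269, 116 and 38.4, and the highest 5 held 91.96% of the day-8 sum. The mean of 8.99 in the negative cells was carried by cell 23 (359) and cell 29 (353) and was 4.82 without cell 23. The other 7 negative cells had levels from 5.91 to 10.1.

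The promoters of the 2 ligand genes are shown because both genes were high in the same sorted cells and because they differ in base composition and in the motifs of the pathway's own nuclear factors. Both are RefSeq sequences of GRCh38.p14, a later build than the hg19 named for the tables, and hold the 250 bases before the annotated start of the gene on its own strand. Capitals mark matches to AATNNACA, a motif of FOXH1, and to CAGAC, a motif bound by SMAD proteins, each searched on both strands (TGTNNATT and GTCTG in reverse). The 2 motifs do not overlap in either sequence.
NODAL promoter, chr10:70441682-70441931, minus strand: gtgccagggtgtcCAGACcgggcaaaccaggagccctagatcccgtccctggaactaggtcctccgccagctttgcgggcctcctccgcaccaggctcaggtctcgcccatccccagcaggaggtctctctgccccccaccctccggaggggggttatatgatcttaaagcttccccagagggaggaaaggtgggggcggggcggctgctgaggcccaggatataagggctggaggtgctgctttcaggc
GDF3 promoter, chr12:7695776-7696025, minus strand: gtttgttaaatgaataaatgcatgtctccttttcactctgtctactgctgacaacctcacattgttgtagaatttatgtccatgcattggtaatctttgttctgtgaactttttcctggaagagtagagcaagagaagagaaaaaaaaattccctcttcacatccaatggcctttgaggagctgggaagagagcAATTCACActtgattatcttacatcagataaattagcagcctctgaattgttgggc
The NODAL window was 65.2% G or C, held 1 CAGAC starting 237 bases before the gene start and held no FOXH1 motif. The GDF3 window was 38.4% G or C, held 1 FOXH1 motif starting 56 bases before the gene start and held no SMAD motif. Of 35116 promoter windows of the same length, 9.88% held the FOXH1 motif and 38% the SMAD motif. The octamer ATGCAAAT, bound by OCT4, was in neither window and in 1.63% of all windows. A match describes letters only, and none of these windows was measured for binding here. TDGF1, LEFTY1 and LEFTY2 are not shown.

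TDGF1, the co-receptor, was detected in 1 BJ cell (14.8), 1 cell of day 2 (1.00), 18 of 92 cells of day 8 (19.6%, 12.03 to 29.1), 87 of 95 positive cells (91.6%, 84.1 to 96.3) and 2 of 85 negative cells (7.35 and 3.47). The positive cells and day 8 each stood apart from the next group in that order, and the intervals of the negative cells, BJ and day 2 overlapped. In the positive cells the level ran from 0 to 6491 with a median of 319 and a mean of 770.2. At day 8 the mean was 22.96, and 14 cells reached 10 or more (15.2%, 8.58 to 24.2), against 7 for GDF3, although fewer cells had any TDGF1. The highest of them were cell 56 (693), cell 87 (239), cell 64 (230.3) and cell 41 (212), and without cell 56 the mean was 15.6. TDGF1 shares 40.7% of its 50-base transcript windows with TDGF1P3, a processed copy of it, so that the split of reads between them is uncertain. With both summed, the mean was 25.7 at day 8 and 811 in the positive cells, and the number of cells detected was 18 and 88. TDGF1 also overlaps LRRC2 on the opposite strand, and whether reads were counted by strand is not stated. 1 negative cell that was left out, with only 170 genes detected, had TDGF1 at 2820.

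LEFTY1 and LEFTY2, neighbouring genes for 2 closely related antagonists, differed most in share of cells in the negative cells. LEFTY1 was listed at 0 in all BJ cells (limit 3.26%, exact upper bound 3.93%) and was detected in 3 cells of day 2, 7 of day 8 (7.61%, 3.11 to 15.1), 89 of 95 positive cells (93.7%, 86.8 to 97.6) and 4 of 85 negative cells (4.71%, 1.297 to 11.6). Its level ran from 0 to 9562 in the positive cells, with a median of 209 and a mean of 493. None of the 7 cells of day 8 was above 2.36, the day-2 mean of 0.397 was 0.0521 without cell 52, and the negative mean of 1.29 was 0.726 without cell 72. The shares of all 4 groups other than the positive cells overlapped in their intervals.

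LEFTY2 was also listed at 0 in all BJ cells. It was detected in 1 cell of day 2 (11.5), in 3 of 92 cells of day 8 (2.68, 1.39 and 1.06), in all 95 positive cells (100%, 96.2 to 100; lowest level 1.86) and in 31 of 85 negative cells (36.5%, 26.3 to 47.6). It was the only gene of the 6 found in every positive cell, with a median of 450.5, a highest level of 9771 and a mean of 1328. The positive cells, the negative cells and day 8 did not overlap in that order, and day 8, day 2 and BJ did. Of the 31 negative cells, 23 reached 10 or more (27.1%, 17.99 to 37.8), and the median of the 31 was 49.4. The negative mean of 98.3 was 47.01 without cell 9, whose level was 4408. Of the cells of day 8 that were left out for few genes, 2 had LEFTY2 at 194 and 55.0, above every kept cell of that day.

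The 2 antagonist transcripts share 31.3% of the 50-base windows of LEFTY1 and 22.03% of those of LEFTY2, so reads could have been split wrongly between them. Their summed mean was 1821 in the positive cells, 99.6 in the negative cells, 0.517 at day 2, 0.265 at day 8 and 0 in BJ. Within positive cells LEFTY2 was the higher of the pair in 61 of 95 and LEFTY1 in 34, at least 10-fold in 32 and 5 cells. The median log2 ratio of LEFTY2 to LEFTY1, each with 1 added, was 1.05, with quartiles of -0.61 and 4.99. In the negative cells LEFTY2 was the higher in 31 of 31 cells, at least 10-fold in 21 of them. The balance of the pair therefore varied widely between positive cells, from log2 -6.01 to 9.92.

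FOXH1 was the lowest of the 6 in the positive cells and the only one with a share above 10% before day 8. It was detected in 9 BJ cells (9.78%, 4.57 to 17.8), 24 cells of day 2 (25%, 16.7 to 34.9), 9 of day 8 (9.78%), 57 positive cells (60.0%, 49.4 to 69.9) and 8 negative cells (9.41%, 4.15 to 17.7). Only the positive cells stood apart from the next group. Means were 0.564, 2.47, 1.43, 23.6 and 0.731 in the same order, and the BJ mean was 0.331 without cell 31. In the positive cells the median was 5.89 and the highest level 157, and 40 cells reached 10 or more. FOXH1 overlaps KIFC2, a kinesin gene on the opposite strand, by 791 bases. Reads of the 2 genes cannot be told apart unless strand was used in counting, which is not stated. In cells with KIFC2 under 1, FOXH1 was detected in 7 of 86 BJ cells, 14 of 79 cells of day 2 (17.7%, 10.0 to 27.9), 5 of 86 of day 8, 28 of 60 positive cells (46.7%, 33.7 to 60.0) and 8 of 84 negative cells. The positive cells kept the highest share, but at 46.7% it fell below the interval over all positive cells (49.4 to 69.9). The day-2 share was also lower than over all cells, within its interval. FOXH1 was also the gene of the set with the highest rho with the number of genes detected over positive cells (0.47): it was found in 44 of 63 positive cells with at least 4000 genes and in 13 of 32 below that.

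Ratios between groups are given as log2 of the ratio of means with 1 added to each, which understates ratios of low genes. A gene was measured when its mean reached 1 in at least 1 of the groups. It was called higher or lower at a ratio of at least 2-fold when its mean log2 level differed in the same direction. The comparisons share groups and are not independent of each other. Between day 2 and BJ only FOXH1 of the 6 could be measured, and it was higher at day 2 by a log2 ratio of 1.15. Of 12480 genes measured, 12.2% were called higher and 12.1% lower (20.9% and 11.03% without rescaling), so 1 call is no result about the set. With 10 added in place of 1 the FOXH1 ratio was 0.24. Between day 8 and day 2, 3 of the 6 were measured, and GDF3 was listed at 0 at day 2. GDF3 and TDGF1 (log2 ratio 4.57) were called higher and FOXH1 (-0.51) was not called, where 13% of 12577 genes were called higher and 12.5% lower (11.2% and 18.7% without rescaling). Both GDF3 and TDGF1 were measured only through day 8, which fixed the direction.

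All 6 genes were called higher in the positive cells than at day 8, against 30.3% of 13719 genes called higher and 11.6% lower. NODAL, LEFTY1 and LEFTY2 were measured only through their level in the positive cells, so this count is a description and not support for a common change. The log2 ratios were 10.18 for LEFTY2, 8.84 for NODAL, 8.79 for LEFTY1, 5.67 for GDF3, 5.01 for TDGF1 and 3.34 for FOXH1, with a median of 7.23 against 0.49 over all genes measured. GDF3 and TDGF1 had smaller ratios than NODAL although their means in the positive cells were higher, since both already had a mean above 20 at day 8.

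Against the negative cells all 6 were again called higher in the positive cells, where 24.8% of 14060 genes were called higher and 21.4% lower (36.4% and 14.9% with scaling on housekeeping genes). NODAL, TDGF1 and FOXH1 were measured only through the positive cells. The log2 ratios were 9.42 for TDGF1, 8.80 for NODAL, 7.75 for LEFTY1, 7.13 for GDF3, 3.83 for FOXH1 and 3.74 for LEFTY2, with a median of 7.44 against 0.06 over all genes. The LEFTY2 and FOXH1 ratios were close and their order depended on the setting: without the highest cell of each group they were 4.69 and 3.93, and as differences of mean log2 levels 6.45 and 2.51. The lowest and highest ratio of LEFTY2 over 11 alternative settings and the main one were 3.63 and 6.45 against the negative cells.

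Between the negative cells and day 8, 5 of the 6 were measured. LEFTY2 (log2 ratio 6.43) and LEFTY1 (1.04) were called higher and GDF3 (-1.46) and TDGF1 (-4.41) lower, while FOXH1 (-0.49) was not called. LEFTY1 and LEFTY2 were measured only through the negative cells, and TDGF1 and FOXH1 only through day 8, which fixed the direction of any call. Of 12965 genes, 28.4% were called higher and 10.6% lower (19.3% and 13.5% without rescaling). The LEFTY1 call was lost without cell 72 (0.66), and the GDF3 call was lost with 10 added in place of 1 (-0.94). With no cell left out, TDGF1 was higher in the negative cells (0.41), which the single cell with 170 genes brought about. Against BJ, 3 of the 6 were measured in the negative cells, LEFTY1, LEFTY2 and GDF3, and all 3 were called higher. All 3 were measured only through the negative cells, which fixed the direction. In BJ the LEFTY genes were listed at 0 and GDF3 was found in 1 cell, and 31.4% of 13163 genes were called higher and 13% lower (23.5% and 16.8% without rescaling). The LEFTY1 call was lost without cell 72 (0.79), without rescaling (0.85) and over cells with at least 4000 genes (0.81). With 10 added and as a difference of mean log2 levels, the calls of LEFTY1 (0.18 and 0.20) and GDF3 (0.91 and 0.42) were lost.

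Day 8 was examined cell by cell, since GDF3 and TDGF1 were each present in a minority of its cells. Both were detected in 9 cells: TDGF1 was found in 9 of 27 cells with GDF3 (33.3%, 16.5 to 53.96) and in 9 of 65 cells without it (13.8%, 6.53 to 24.7), and the intervals overlapped. At 10 or more the 2 genes met in 3 cells, numbers 25, 64 and 71, of 7 and 14 cells. Spearman's rho between them was 0.21 over 92 cells and -0.02 over the 9 cells with both. The labels name no separate cultures within a group and the depth of each cell is unknown, so these values are descriptions.

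The 7 cells of day 8 with GDF3 at 10 or more were set against the other 85 for markers of both cell identities, and NANOG and COL1A1 had intervals that did not overlap. NANOG, a core pluripotency factor, was detected in 4 of 7 (57.1%, 18.4 to 90.1) and in 2 of 85 (2.35%, 0.286 to 8.24). L1TD1, which binds RNA in pluripotent cells, was found in 7 of 7 (100%, 59.04 to 100) and in 49 of 85 (57.6%, 46.4 to 68.3), with overlapping intervals. COL1A1, a fibroblast collagen, was detected in 1 of 7 (14.3%, 0.361 to 57.9) and in 67 of 85 (78.8%, 68.6 to 86.9). LUM was found in 0 of 7 (0 to 40.96%) and 25 of 85 (29.4%, 20.02 to 40.3), COL1A2 in 6 of 7 and 84 of 85, and LIN28A in 1 of 7 and 1 of 85, all with overlapping intervals. The median number of genes detected was 5938 and 5913, so the 2 sets were of like complexity. At the lower threshold, all 6 cells of day 8 with NANOG were among the 27 with GDF3, and LIN28A was found in 2 of these 27 and in 0 of 65. Over those 27 cells COL1A1 was found in 16 (59.3%) and LUM in 9 (33.3%), against 52 (80%) and 16 (24.6%) of the 65.

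The 18 cells of day 8 with TDGF1 had LUM in 0 of 18 (0 to 18.5%), against 25 of 74 (33.8%, 23.2 to 45.7). DNMT3B, the de novo DNA methyltransferase of pluripotent cells, was detected in 6 of 18 (33.3%, 13.3 to 59.01) and 5 of 74 (6.76%, 2.23 to 15.1), with overlapping intervals. NANOG was detected in 4 of 18 and 2 of 74. COL1A1 was detected in 11 of 18 (61.1%), so many of these cells still had fibroblast transcripts. Over all 92 cells of day 8, which include these 18, it was detected in 68 (73.9%). NODAL and LEFTY1 were detected in none of the 18, and LEFTY2 and FOXH1 in 1 and 3. No kept cell of day 8 had NODAL, LEFTY1 or LEFTY2 at 10 or more (limit 3.26%, exact upper bound 3.93%), whereas GDF3 and TDGF1 reached 10 in 7 and 14 cells.

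**Figure D3:**
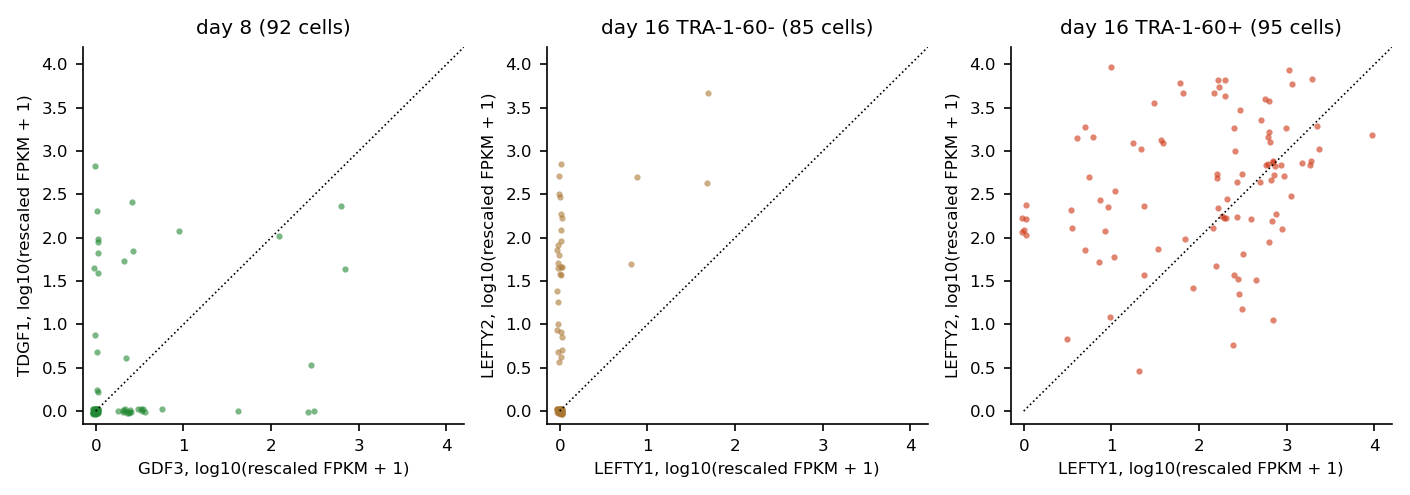
Levels of 2 genes per cell as log10(level + 1) on both axes: TDGF1 against GDF3 at day 8 (left), and LEFTY2 against LEFTY1 in the negative (middle) and positive cells (right). Each point is 1 kept cell with a small random shift, and the dotted line marks equal levels; 9 cells of day 8 had both GDF3 and TDGF1, and all 31 negative cells with a LEFTY gene lie above the line.

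In the negative cells the LEFTY2 transcript was found without NODAL or TDGF1 in the same cell. All 4 cells with LEFTY1 were among the 31 with LEFTY2. NODAL and TDGF1 were detected in 0 of the 31 (0 to 11.2%), GDF3 in 5 (16.1%, 5.45 to 33.7) and FOXH1 in 3. The 31 cells had fibroblast transcripts at the level of the other 54: COL1A1, COL1A2, FN1 and LUM were detected in all 31, the median level of COL1A1 was 1273 and 1105, and that of LUM was 970 and 842. The median number of genes detected was 5871 and 5864. Pluripotency markers were rare in both sets: LIN28A was detected in 0 of 31 and 0 of 54, NANOG in 2 and 2, and DNMT3B in 1 and 1. L1TD1 was detected in 22 of 31 (70.97%, 51.96 to 85.8) and 29 of 54 (53.7%, 39.6 to 67.4), with overlapping intervals. Cell 9, which had the highest LEFTY2, had COL1A1 at 304, LUM at 292 and L1TD1 at 0. GDF3 was found in 9 of the negative cells. Whether some LEFTY2 or GDF3 in the negative cells came from RNA of positive cells was not tested.

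Among the 95 positive cells the 6 genes followed one another only in part. The highest Spearman values were 0.33 for NODAL and TDGF1, 0.33 for TDGF1 and FOXH1, 0.28 for LEFTY1 and LEFTY2 and 0.24 for NODAL and FOXH1. LEFTY2 had values of -0.04 with NODAL, -0.13 with TDGF1 and -0.23 with FOXH1. Over the 63 cells with at least 4000 genes most pairs had higher values. Among them were 0.59 for NODAL and FOXH1, 0.48 for NODAL and TDGF1, 0.46 for TDGF1 and FOXH1 and 0.31 for NODAL and GDF3. LEFTY1 had 0.31 with each of NODAL, GDF3, TDGF1 and FOXH1, against 0.11, 0.11, 0.13 and 0.21 over all 95 cells. GDF3 and FOXH1 had 0.20 over the 63 cells and 0.22 over the 95. LEFTY1 and LEFTY2 were at 0.35 over the 63 cells, and LEFTY2 was at -0.13, -0.21 and -0.22 with NODAL, TDGF1 and FOXH1. The rho with the number of genes detected over the 63 cells was 0.36 for NODAL, 0.43 for TDGF1 and 0.35 for FOXH1. It was 0.16 for LEFTY1, 0.05 for GDF3 and -0.28 for LEFTY2. The part of complexity in the values between genes was not tested. In the 32 cells below 4000 genes the values between genes ran from -0.19 to 0.20. All points share 1 library group and an unknown depth, so no weight is put on single values.

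**Figure D4:**
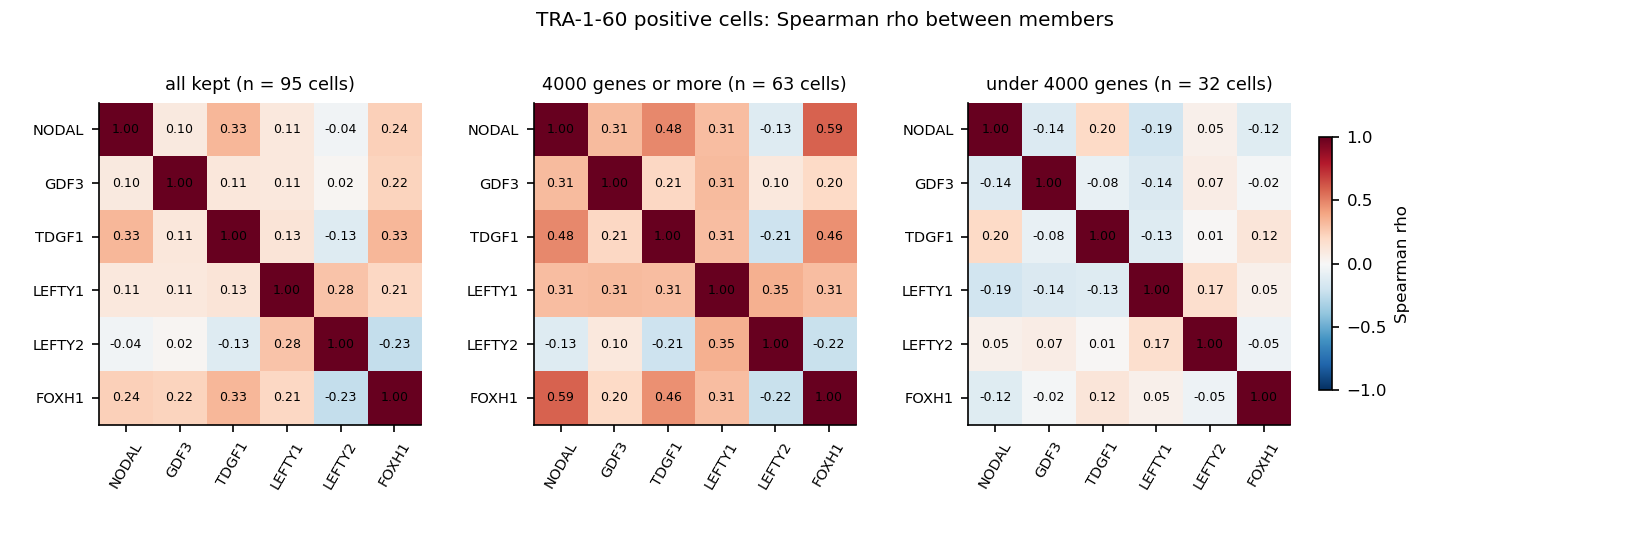
Spearman's rho between the levels of each pair of genes in TRA-1-60 positive cells, over all 95 kept cells, the 63 with at least 4000 genes and the 32 with fewer; colour and number give rho. In the middle panel NODAL, TDGF1 and FOXH1 have values of 0.46 to 0.59, and LEFTY1 has 0.31 with each of NODAL, GDF3, TDGF1 and FOXH1. LEFTY2 is positive there with LEFTY1 (0.35) and at or below 0.10 with the other genes.

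For each gene, the 5 genes with the highest rho over the 95 cells were taken among 7940 genes detected in 25% to 95% of them (7941 for LEFTY2, which was itself in every cell). For NODAL they were PHACTR4 (0.42), FABP5 (0.42), ZSCAN10 (0.41), CD9 (0.41) and SNHG5 (0.40); FABP5 is a fatty acid binding protein and ZSCAN10 a zinc finger factor of pluripotent cells. For GDF3 they were NBEAL1 (0.44), RBBP6 (0.43), RPL13AP6 (0.42), MAP4 (0.42) and EIF4G1 (0.41). TDGF1 was followed by its copy TDGF1P3 (0.79, and 0.96 over the 63 cells), with which it shares sequence, and by UQCRH (0.56), MT1E (0.50), UQCRHL (0.46) and DMKN (0.45). For LEFTY1 the first was NANOG (0.42), with ZDHHC1 (0.39), CECR2 (0.35), ZNF664 (0.34) and SGO1 (0.33). LEFTY2 was followed by TGFBI (0.48), COL2A1 (0.37), COL4A2 (0.37), PDGFC (0.36) and PALLD (0.36), which include 3 genes of the extracellular matrix and the actin-binding protein palladin. For FOXH1 the first was KIFC2 (0.73), with which it overlaps, before EPCAM (0.58), ZSCAN10 (0.54), RPS15A (0.53) and MT1F (0.53). LEFTY1 and LEFTY2 had none of these 5 genes in common, while NODAL and FOXH1 both had ZSCAN10.

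Known mesendoderm targets of the pathway were low but not absent in the positive cells. MIXL1, a homeobox factor of the primitive streak, had a mean of 13.7 and was detected in 24 of 95 cells. All 24 were among the 74 cells with NODAL at 10 or more (32.4%, 22.005 to 44.3), and MIXL1 was found in 0 of the other 21 (0 to 16.1%). The 2 sets differed in complexity, with medians of 6038 and 5279 genes detected, and the part of complexity in this was not tested. The rho of NODAL and MIXL1 was 0.23 over 95 cells, 0.59 over the 63 with at least 4000 genes and -0.16 over the other 32. CER1, a secreted antagonist of Nodal made in early endoderm, had a mean of 42.8 that came from 14 cells, 9 of them among the 74 (12.2%) and 5 among the 21 (23.8%). Of 10 listed targets, 5 were measured and called higher in the positive cells than at day 8 and than in the negative cells (MIXL1, EOMES, GATA6, FGF8 and WNT3). Against 30.3% and 24.8% of all genes called higher, this count is a description only: apart from WNT3 at day 8, each was measured only through its level in the positive cells. EOMES and GATA6 came from 2 cells each. WNT3 averaged 14.1 over the positive cells and was detected in 62. T, GSC, FOXA2, SOX17 and LHX1 had means below 1 in every group. For reference, of 15 pluripotency genes 14 were measured, and all 14 were called higher in the positive cells against both groups, with median log2 ratios of 3.63 and 4.89. Many of them, LIN28A and ZFP42 among them, were likewise measured only through the positive cells.

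The wider pathway was read from lists of its ligands, convertases, antagonists, receptors and nuclear factors. Of the 10 listed ligands in the tables, 6 were measured between positive cells and day 8: NODAL, GDF3 and TGFB1 were called higher, and INHBA and TGFB2 lower, against 30.3% and 11.6% of all genes. NODAL and TGFB1 were measured only through the positive cells, and INHBA and TGFB2 only through day 8, which fixed their direction. INHBA, which encodes the subunit of activin A, had means of 38.4 in the negative cells, 14.2 in BJ, 6.97 at day 8, 6.60 at day 2 and 0.293 in the positive cells, and was detected in 6 of 95 positive and 78 of 85 negative cells. Against the negative cells 7 ligands were measured. NODAL and GDF3 were called higher in the positive cells, and INHBA and TGFB2 lower. These counts lay near the 24.8% and 21.4% of all genes called and are no result about the list. NODAL was measured only through the positive cells, and INHBA and TGFB2 only through the negative cells, which fixed their direction. Of 4 proprotein convertases, which cleave ligand precursors, 3 were measured against day 8 and all 4 against the negative cells. PCSK5 was called higher in the positive cells than in both others (mean 15.3, against 0.738 at day 8 and 3.39 in the negative cells). Against day 8 it was measured only through the positive cells. PCSK6 was called lower in the positive than in the negative cells. It was measured only through the negative cells, which fixed the direction. Of all genes, 30.3% and 24.8% were called higher and 11.6% and 21.4% lower, so these calls are no result about the list. The means of FURIN were 8.28 in positive and 12.1 in negative cells, and those of PCSK7 9.82 and 11.8.

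Of 9 antagonists measured between positive cells and day 8, 6 were called higher (LEFTY1, LEFTY2, CER1, DAND5, FST and BAMBI; DAND5 not without rescaling) and FSTL3 lower, against 30.3% and 11.6% of all genes. LEFTY1, LEFTY2, CER1 and DAND5 were measured only through the positive cells, so the count is a description. FST, follistatin, which binds activins, had a mean of 107 in the positive cells, 23.9 in BJ, 8.02 in the negative cells, 7.59 at day 2 and 2.09 at day 8. BAMBI, a decoy receptor, averaged 113 in the positive cells and 3.26 to 12.2 in the other groups. FSTL3, a relative of follistatin, was lowest in the positive cells, with a mean of 1.60, against 7.76 at day 8, 37.05 in BJ, 42.5 in negative cells and 43.4 at day 2. NOMO1 and NCLN, parts of a membrane complex that limits Nodal signalling, had means of 13.8 and 22.7 in positive cells and of 16.1 and 28.9 in negative cells.

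Of 6 receptors and co-receptors measured, ACVR2A, ACVR2B, TGFBR1 and TDGF1 were called higher in the positive cells than at day 8, and TGFBR2 lower, against 30.3% and 11.6% of all genes. ACVR2B was measured only through the positive cells. ACVR2B, a type II activin receptor, was detected in 61 of 95 positive cells (mean 8.32), 17 of 92 cells of day 8 and 7 of 85 negative cells, and TGFBR1 averaged 10.5 in the positive cells. TGFBR2, the type II receptor for TGF-beta itself, had a mean of 2.47 in positive against 40.03 in negative cells. ACVR1C, the type I receptor ALK7, CFC1 and CFC1B, the other Cripto-type co-receptors, had means below 1 in every group, so TDGF1 was the co-receptor with a level.

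Of the 13 SMAD and nuclear genes, all measured, 8 were called higher in the positive cells than at day 8 (SMAD2, SMAD7, FOXH1, TRIM33, SKIL, TGIF1, TGIF2 and PMEPA1) and SMURF2 lower, against 30.3% and 11.6% of all genes. Against the negative cells 3 were called higher (FOXH1, SKIL and TGIF2) and 3 lower (DRAP1, SMURF2 and PMEPA1), and with scaling on housekeeping genes 6 and 3. These counts of 3 and 3 lay near the 24.8% and 21.4% of all genes and are no result about the list. The mean of SMAD2 was 20.7 in positive cells, 4.95 at day 8 and 9.59 in negative cells. Its mean log2 level was nevertheless lower in positive than in negative cells (difference -0.33), so it was not called between them. It was detected in 60% of positive and 77.6% of negative cells. With scaling on housekeeping genes SMAD2 was called higher in the positive cells. The means of SMAD3 and SMAD4 lay between 2.71 and 6.01 in every group. The repressors TGIF1, TGIF2 and SKIL had means of 166, 39.4 and 54.7 in positive cells, against 86.2, 16.4 and 18.5 in negative cells. PMEPA1, a feedback inhibitor induced by TGF-beta, had a mean of 19.8 in positive and 116 in negative cells, where it was detected in 83 of 85. SMAD7, an inhibitory SMAD, averaged 24.6 and 37.2, SMURF2, a ubiquitin ligase for SMADs and receptors, 2.05 and 28.02, and DRAP1, which restrains FOXH1, 6.89 and 21.8.

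**Figure D5:**
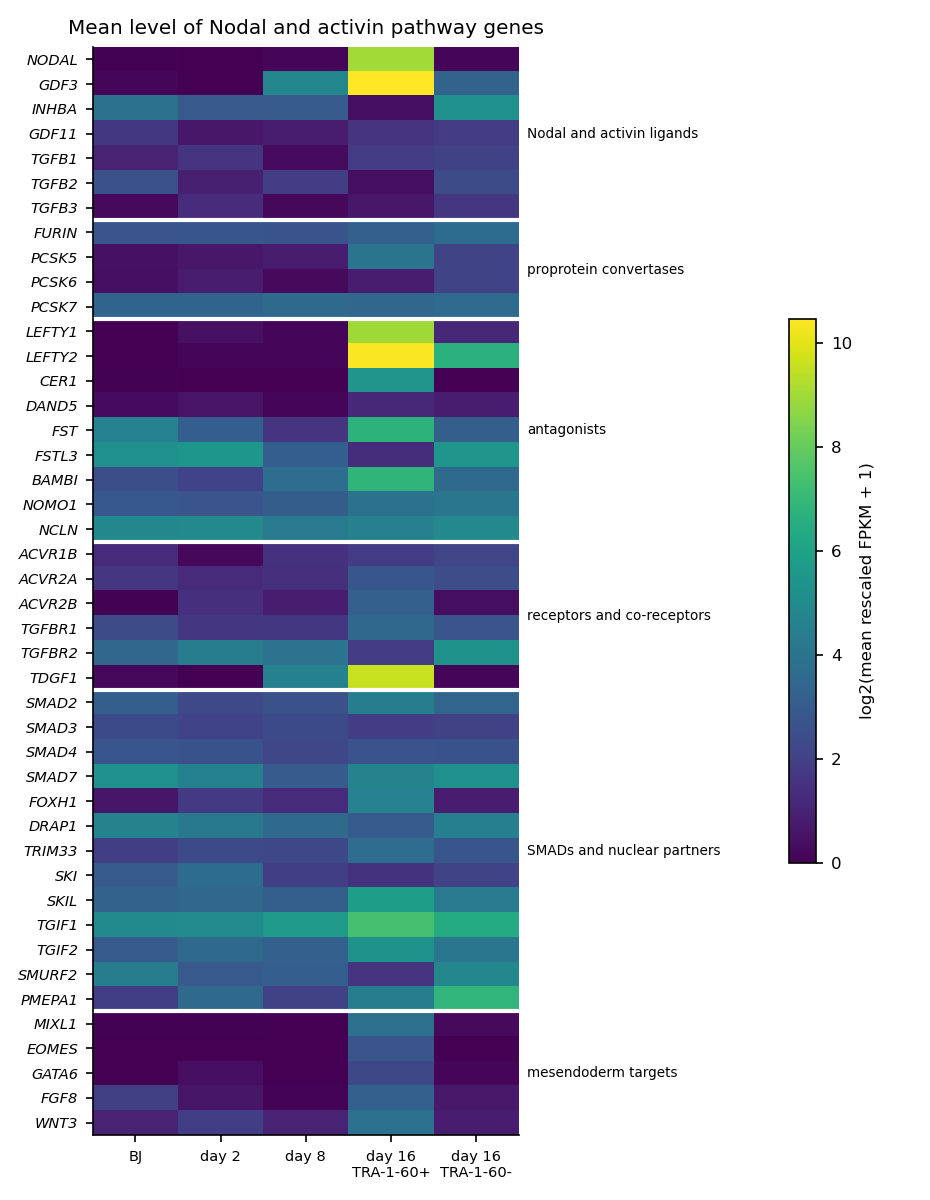
Mean level of the listed pathway genes with a mean of 1 or more in some group, as log2(mean + 1) by colour, for the 5 groups in columns and the genes in rows under their list. NODAL, GDF3, LEFTY1, LEFTY2 and TDGF1 are brightest in the positive cells, whereas INHBA, FSTL3, TGFBR2 and PMEPA1 are brighter in the negative than in the positive cells.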

How the data were processed

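Single cells were captured on Fluidigm C1 chips and their polyadenylated RNA made into Nextera XT libraries, per the labels' protocols. The authors deposited FPKM, in 1 table per group with 27021 genes; STAR, Cuffnorm and hg19 are named in the submitters' processing notes, with their versions not given in the sources used here. Nothing says if the 5 tables went through 1 joint normalization. Median FPKM totals per cell ran from 647375 to 809963. FPKM were rescaled to 1000000 per cell. Cells were kept with at least 2000 genes at 1 or more and with ACTB or GAPDH at 1 or more; doublets were not called, and leaving out the 5% of cells with most genes was an alternative. Python 3.11.15, pandas 2.3.3, numpy 2.4.6, scipy 1.17.1 and matplotlib 3.10.9 were used. The calling rule and the correlation ranking were tested on simulated data. No p-value was computed.

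The genes and lists were chosen with earlier results of these data known. Named genes were the 6 genes, listed genes with a mean of 10 or more in some group, and the 5 genes with the highest rho to each; others are named with counts. GDF1 was not analysed here. 1 listed gene is not reported here and was left out of its list. Overlaps and shared windows were taken from GENCODE 29, promoters from RefSeq. Alternatives covered scaling, the cell filter, the value added before the log, the detection threshold and the correlation measure; leaving out the highest cell and restricting FOXH1 to cells without KIFC2 were chosen after seeing the data.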

Additional observations from a re-analysis of the deposited data

How the results depend on the processing

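The counts of 6 genes called higher in the positive cells, against day 8 and against the negative cells, were 6 under all 11 alternatives. The other counts moved in these settings. With 10 added before the log, or as a difference of mean log2 levels, the count higher at day 2 than in BJ went from 1 to 0, the count higher in the negative cells than in BJ from 3 to 1, and the counts higher and lower in the negative cells than at day 8 from 2 to 1 each. The difference of mean log2 levels also moved the count higher at day 8 than at day 2 from 2 to 1. In the negative cells against day 8 the count higher was also 1 without rescaling, with no cell filter, with at least 4000 genes per cell and without the highest cell, and the count lower was also 1 with no cell filter. The log2 ratio of TDGF1 for the last comparison was reversed with no cell filter (0.41); 1 cell with 170 genes caused it. Of the log2 ratios under the alternatives, 245 kept their side of the threshold, 18 lost the call and 1 was reversed. Scaling on housekeeping genes moved the median of all genes from 0.06 to 0.62 between the positive and negative cells and from 0.49 to 0.75 between the positive cells and day 8. Between the negative cells and day 8 it gave 21.2% of genes higher and 14.9% lower, and between day 2 and BJ 17.0% and 10.8%. Unknown depth limits shares of cells: 24 of 185 shares moved beyond their interval, mostly at a threshold of 10. No paired analysis was possible because the groups hold different single cells that share only a number and no test between groups was made.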

Other observations

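Another relation was noticed after the values were seen. TGFBI, a secreted matrix protein induced by TGF-beta, had a rho of -0.54 with NODAL and -0.49 with TDGF1 over the 95 positive cells, and 0.48 with LEFTY2. Over the 63 cells with at least 4000 genes the values were -0.67, -0.62 and 0.59, and over the other 32 they were -0.34, -0.29 and 0.35. TGFBI was detected in 32 of the 63 cells (50.8%, 37.9 to 63.6) and in 9 of the 32. LEFTY2 also had values of -0.33 with LIN28A, -0.36 with DNMT3B and 0.30 with COL1A2, whereas LEFTY1 had 0.11, -0.03 and -0.11. The rho of LEFTY1 with TGFBI was 0.01 over 95 cells, -0.15 over the 63 and 0.30 over the 32. With LIN28A, LEFTY2 and LEFTY1 had 0.03 and 0.15 over the 32. These points share 1 group of cells and an unknown depth, and the values are descriptions.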
